A study of Homo sapiens with 18 samples.

Results

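The 9 genes described here act against phosphoinositide 3-kinase (PI3K) and its effector kinase AKT. They are the lipid phosphatase genes INPP5D, INPPL1, INPP5E, INPP5K, INPP4A and INPP4B, the AKT phosphatase genes PHLPP1 and PHLPP2, and PIK3IP1, whose product inhibits PI3K itself. They were taken by name, as brakes of the pathway, from 60483 gene identifiers in the deposited tables. The rule for choosing them uses no measured value, although earlier results of these data were known when it was made. PHLPP1 and PHLPP2 encode protein phosphatases rather than phosphoinositide phosphatases, and PIK3IP1 encodes no phosphatase.

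RNA was sequenced from HAIR-M, an established B cell line derived from marginal zone lymphoma. Treated cells received 5 nM copanlisib, an intravenous inhibitor of class I PI3K with most activity against the alpha and delta isoforms, and were collected at 4, 8 and 12 h, with 3 libraries at each time. The other 9 libraries came from HAIR-M cells given DMSO, the solvent, for the same times, again with 3 libraries at each time. The data therefore hold 1 cell line and 1 dose, and the labels do not say that replicates were separate cultures, so p-values measure the spread between these libraries, which may be technical.

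Class I PI3K makes PIP3 in the plasma membrane, where it holds AKT, BTK and other proteins with PIP3-binding domains. The SHIP enzymes (INPP5D and INPPL1) and other 5-phosphatases take PIP3 or related lipids apart at the 5 position, and INPP4A and INPP4B remove the 4-phosphate from the product of the SHIP enzymes. In B cells SHIP1, the product of INPP5D, is drawn to inhibitory receptors and lowers the response to the B cell receptor. PHLPP enzymes dephosphorylate AKT directly, and PIK3IP1 is a transmembrane protein that binds the catalytic subunit of PI3K. When AKT is inactive, FOXO transcription factors stay in the nucleus, and PIK3IP1 is counted among the genes they regulate.

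PIK3IP1 rose with copanlisib at every time, to 2.59-fold of DMSO at 12 h, and had the largest change of the 9 genes at each time. INPP5D and INPP5K also rose at 4, 8 and 12 h, and PHLPP2 fell at 4, 8 and 12 h, with an 8 h call that was lost under 14 of 26 alternative analyses and a 12 h call that was lost under 4. The other 5 genes changed at some times only, and the 4 h call of INPPL1 (lower) was lost with 1 of the 3 copanlisib libraries alone. The promoters of the 4 genes that changed in 1 direction at all times are shown first. They are RefSeq windows on GRCh38.p14, from 250 bases before to 50 bases after an annotated start, read 5′ to 3′ on the gene's strand. Capitals mark the forkhead (FOXO) core motif TGTTTAC or its reverse complement GTAAACA, the only motif searched, on both strands.
PIK3IP1, chr22:31292439-31292738, minus strand: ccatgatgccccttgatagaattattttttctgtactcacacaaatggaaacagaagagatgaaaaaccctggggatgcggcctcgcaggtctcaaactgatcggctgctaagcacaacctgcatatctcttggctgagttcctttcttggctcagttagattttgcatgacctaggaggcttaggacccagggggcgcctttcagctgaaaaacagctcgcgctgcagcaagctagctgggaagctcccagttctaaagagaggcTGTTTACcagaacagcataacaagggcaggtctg
INPP5D, chr2:233060092-233060391, plus strand: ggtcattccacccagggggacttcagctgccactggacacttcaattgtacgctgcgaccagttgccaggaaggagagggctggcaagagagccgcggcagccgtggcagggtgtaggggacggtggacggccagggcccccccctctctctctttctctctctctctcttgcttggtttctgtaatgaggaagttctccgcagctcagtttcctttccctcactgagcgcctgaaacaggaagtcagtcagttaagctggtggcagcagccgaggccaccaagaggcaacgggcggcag
INPP5K, chr17:1516563-1516862, minus strand: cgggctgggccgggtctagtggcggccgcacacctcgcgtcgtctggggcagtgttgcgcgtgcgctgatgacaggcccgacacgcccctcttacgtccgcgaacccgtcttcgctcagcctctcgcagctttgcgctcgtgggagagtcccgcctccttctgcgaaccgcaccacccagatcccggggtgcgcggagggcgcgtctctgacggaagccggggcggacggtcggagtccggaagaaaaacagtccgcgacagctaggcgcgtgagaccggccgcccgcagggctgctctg
PHLPP2, chr16:71724652-71724951, minus strand: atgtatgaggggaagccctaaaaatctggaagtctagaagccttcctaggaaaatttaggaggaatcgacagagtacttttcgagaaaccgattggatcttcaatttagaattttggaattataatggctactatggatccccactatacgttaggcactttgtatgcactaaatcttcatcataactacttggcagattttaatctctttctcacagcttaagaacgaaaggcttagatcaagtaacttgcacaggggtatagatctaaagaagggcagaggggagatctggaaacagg
The motif stood in 1 of 18 windows of the 9 genes, the one of PIK3IP1 printed here, with its first base at position 17 after the start. The other PIK3IP1 window, whose start further upstream is that of the GENCODE 29 gene body, did not hold it. Of all 35116 RefSeq promoter windows of this length, 3.42% held the motif. Of the 27305 genes with such windows, 4.19% held it in at least 1 of them. A match is a description of letters and not of binding. The windows of INPP5K and INPP5D were rich in G and C, at 70.3% and 60.3%, while that of PIK3IP1 had 49.7% and that of PHLPP2 39.7%. The gene bodies lie at chr22:31281593-31292534 (PIK3IP1, minus strand), chr2:233059967-233207903 (INPP5D, plus strand), chr17:1494571-1516888 (INPP5K, minus strand) and chr16:71637835-71724701 (PHLPP2, minus strand) in the GENCODE 29 annotation of GRCh38.

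All 9 genes passed the filter on low counts, which kept 16122 genes for testing. Libraries held 13587017 to 25566761 reads assigned to genes. Levels are given as CPM, the reads of a gene relative to the depth of its library, scaled with TMM factors. Copanlisib replicates 1 and 2 at 4 h stood apart from all other libraries. Their unmapped shares were 8.73% and 5.22%, against 1.74% to 2.82% in the other 16 libraries, and their mitochondrial read shares were 12.4% and 12.6%, where the others had 9.07% to 10.5%. Their counts differed from those of copanlisib replicate 3 at 4 h with a chi-square per gene of 19.9 and 15.8, where pairs of replicates in all other groups gave 1.52 to 2.94. The part of this split in the 4 h results was not tested, and each 4 h drug effect of a named gene is therefore also given with replicate 3 as the only copanlisib library, which is then assumed to vary like the other groups. The extraction protocol in the labels speaks of retinas, but RCVRN, PDE6A, GNAT1, CRX and ARR3 had a median of 0 reads over the libraries. The 8 retina markers together summed to 8.62 to 13.9 CPM, nearly all from PDE6B (5.63 to 10.4 CPM) and NRL (2.52 to 3.45 CPM), which passed the filter. The 5 B cell markers MS4A1, CD79A, CD79B, PAX5 and CD22 summed to 1288 to 1906 CPM, the 8 T and NK cell markers to 12.0 to 20.2 CPM (CD3D, CD3G and CD8A at a median of 0), 7 myeloid markers to 4.82 to 11.2 CPM and 6 markers of stroma and epithelium to 17.4 to 27.8 CPM. The T and NK cell sum came nearly all from NKG7 (7.16 to 16.9 CPM) and CD4 (2.72 to 4.99 CPM). The myeloid sum came mostly from CSF1R (2.19 to 4.19 CPM) and ITGAM (1.82 to 5.34 CPM), and that of stroma and epithelium from KRT8 (12.6 to 20.8 CPM). All of these passed the filter. With copanlisib 2 of the 5 B cell markers were called higher at 4 h, 3 at 8 h and 4 at 12 h, and 0 lower at these times (4 higher at 4 h with copanlisib replicate 3 only). Of the other markers tested, NKG7 was called lower at 4 and 12 h, KRT8 higher at 8 and 12 h, PDGFRB higher at 4 and 12 h, and S100A9 and PDE6B higher at 12 h. The 4 h log2 fold change of NKG7 was −0.40, and −0.17 with copanlisib replicate 3 only. That of PDGFRB was 0.63, and 1.11 with copanlisib replicate 3 only. The part of these markers in the results was not tested.

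The 9 genes differed widely in level in DMSO cells. Per kb of exon, INPP5D was highest, at 29.6 to 40.5 CPM per kb over the 9 DMSO libraries (median 33.4). INPPL1 followed at 20.6 to 27.6 (median 22.8), and INPP4A at 11.3 to 16.4 (median 12.0). These 3 genes did not overlap with one another or with the rest in level per length. INPP5K had a median of 5.19 CPM per kb, PHLPP1 4.30, INPP4B 3.54, INPP5E 3.29 and PIK3IP1 2.68, and each of these neighbours in the order overlapped with the next in range. PHLPP2 was lowest at 0.982 to 1.87 CPM per kb (median 1.11), and its highest library overlapped with the lowest of PIK3IP1, at 1.76. SHIP1, the haematopoietic 5-phosphatase, was thus the most abundant of these transcripts per length in HAIR-M. The least abundant still had 118 reads (PIK3IP1) and 180 reads (PHLPP2) in the library where each was lowest.

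**Figure D1:**
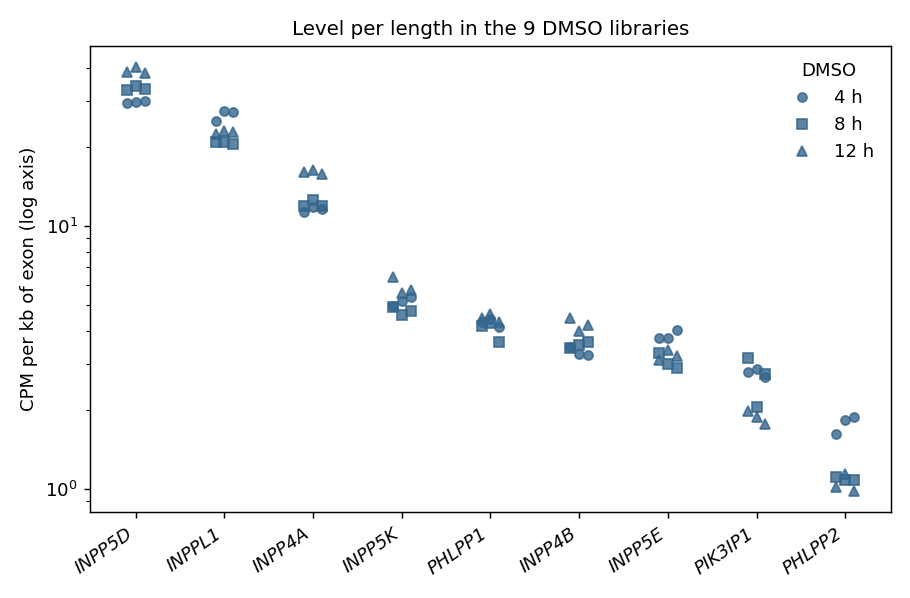
Level per length (CPM per kb of exon, log axis) of the 9 genes in the 9 DMSO libraries, with 1 point for each library and its shape for the time. INPP5D lies highest, between 29.6 and 40.5, and PHLPP2 lowest, between 0.982 and 1.87.

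With copanlisib, 8 of 9 genes were called at 4 h (6 higher, 2 lower; edgeR quasi-likelihood test, adjusted p under 0.05 over all genes tested), where 38.4% of all 16122 genes were called. At 8 h 6 of 9 were called (5 higher, 1 lower), against 33.1% of all genes, and at 12 h 5 of 9 (4 higher, 1 lower), against 30.3% of all genes. Copanlisib libraries lay wholly above DMSO libraries for 6 of the 9 genes and wholly below for 1 at 4 h (38.9% of all genes separated in either direction), for 5 and 1 at 8 h (50.7% of all genes), and for 5 and 1 at 12 h (46% of all genes). A large part of the transcriptome thus separated by treatment, and with 9 genes these counts are a description of the members only. The median log2 fold change of the 9 genes was 0.22 at 4 h, 0.16 at 8 h and 0.06 at 12 h, where that of all genes was 0.0095, 0.015 and 0.0044. PIK3IP1, INPP5D and INPP5K were called higher at all 3 times, as were 4.99% of all genes, and PHLPP2 was called lower at all 3 times, as were 8.32% of all genes (13.3% in either direction). At 4 h with copanlisib replicate 3 only, 6 of 9 genes were called (5 higher, 1 lower), against 22.2% of the 17007 genes tested in that fit (8.86% higher, 13.4% lower). When only the 4 h libraries were fitted, 4 of 9 and 3733 of all genes were called, and INPP5K, PHLPP1, INPPL1 and INPP4A lost their calls. With only the 8 h libraries 6 of 9 and 7020 of all genes were called, where the joint fit called 5336 genes. With only the 12 h libraries 5 of 9 and 6262 of all genes were called, where the joint fit called 4882. The filter on low counts was applied anew in each single-time fit, so these counts are given without a share of the genes tested. In bulk RNA, fewer cells with a transcript and less of it in each cell cannot be told apart.

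**Figure D2:**
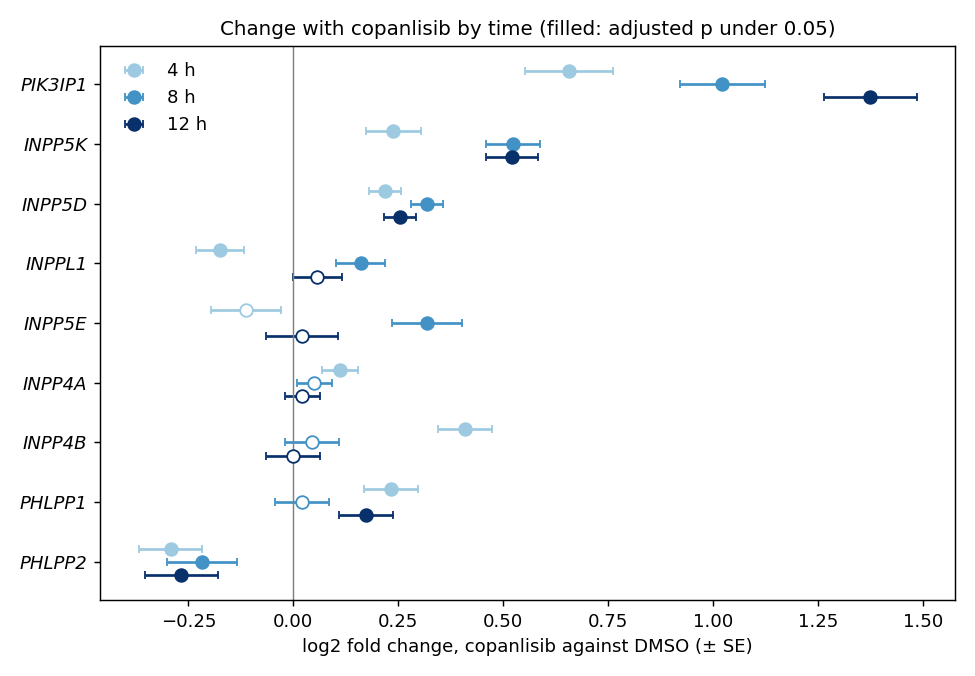
Log2 fold change, copanlisib against DMSO, of each gene at 4, 8 and 12 h (points, with bars for 1 SE; n = 3 libraries in each group). Filled points passed an adjusted p of 0.05. PIK3IP1 lies farthest to the right, at 0.66, 1.02 and 1.38, and PHLPP2 lies left of 0 at each time.

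PIK3IP1, the inhibitor of PI3K, had 16.2, 16.01 and 17.8 CPM in copanlisib cells at 4 h, against 10.6, 10.9 and 10.2 CPM in DMSO cells. At 8 h it had 20.7, 19.9 and 21.5 CPM in copanlisib cells, against 12.0, 7.81 and 10.4 CPM in DMSO cells. At 12 h it had 18.2, 16.9 and 20.2 CPM in copanlisib cells, against 7.52, 7.16 and 6.70 CPM in DMSO cells. Every copanlisib library lay above every DMSO library of its time, as it did for 19% of all genes at 4 h, 24.5% at 8 h and 21.9% at 12 h. The log2 fold changes were 0.66 ± 0.10 (SE) at 4 h, 1.02 ± 0.10 at 8 h and 1.38 ± 0.11 at 12 h, or 1.58-, 2.03- and 2.59-fold, with edgeR adjusted p of 1.7e-05, 1.2e-08 and 4.4e-10. At 12 h 0.751% of all genes had a larger change in either direction, at 8 h 1.76% and at 4 h 9.45%. The 4 h log2 fold change was 0.75 with copanlisib replicate 3 as the only copanlisib library (edgeR adjusted p = 6.6e-06).

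The effect on PIK3IP1 was larger at 12 h than at 4 h by 0.72 ± 0.15 on the log2 scale (edgeR adjusted p = 0.0025), a difference called for 16.7% of all genes. It was 0.62 with copanlisib replicate 3 only (edgeR adjusted p = 0.013). In DMSO cells PIK3IP1 itself fell with time, by 0.57 ± 0.12 on the log2 scale at 12 h against 4 h (edgeR adjusted p = 3.3e-04). In copanlisib cells the same contrast was 0.15 ± 0.10 (edgeR adjusted p = 0.19). The means at 4, 8 and 12 h were 16.7, 20.7 and 18.4 CPM in copanlisib cells, against 10.6, 10.1 and 7.13 CPM in DMSO cells. Among the 9 genes, the effect at 12 h minus that at 4 h was called for 3 (2 above 0, 1 below), against 8.98% and 7.69% of all genes in these directions. For 8 h minus 4 h it was called for 4 (3 above 0, 1 below), against 9.29% and 9.86% of all genes. For PIK3IP1 the steps between 4 and 8 h (0.37 ± 0.15, edgeR adjusted p = 0.079) and between 8 and 12 h (0.35 ± 0.15, edgeR adjusted p = 0.61) did not pass the test. The first step was 0.54 without DMSO replicate 1 of 8 h and 0.41 without copanlisib replicate 3 of 4 h, where it passed (edgeR adjusted p of 0.016 and 0.015), and 0.21 without DMSO replicate 2 of 8 h (edgeR adjusted p = 0.29). The second step was 0.17 without DMSO replicate 1 and 0.51 without DMSO replicate 2 of 8 h (edgeR adjusted p of 0.89 and 0.32). From 8 to 12 h the drug effect changed by this test for 0 of the 9 genes and for 0.0558% of all genes.

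PIK3IP1 shares exon sequence with PIK3IP1-AS1, a transcript of the opposite strand, which had 1 to 15 reads in a library, while PIK3IP1 had 118 to 568. Of the reads at PIK3IP1, 8.29% lay on the strand not counted, against 0.157% to 0.707% for the other 8 genes. Counts taken without regard to strand kept each PIK3IP1 call.

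**Figure D3:**
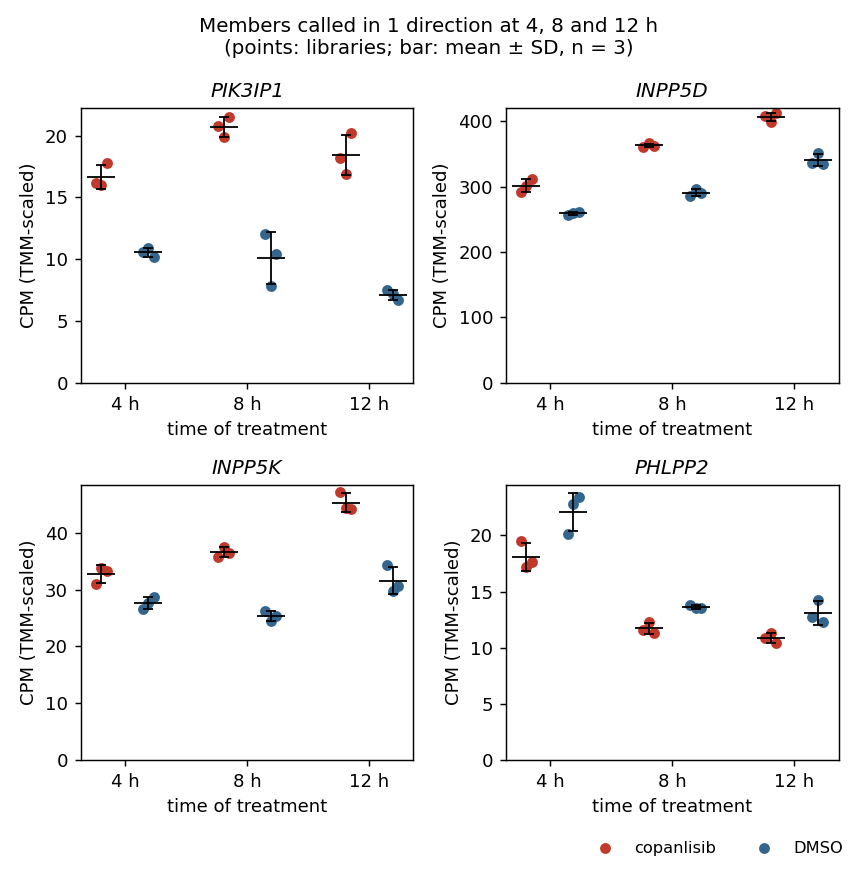
CPM (TMM-scaled) of PIK3IP1, INPP5D, INPP5K and PHLPP2 by time, copanlisib left of DMSO, with 1 point for each library and bars for the mean ± SD (n = 3 in each group). For PIK3IP1, INPP5D and INPP5K all copanlisib points lie above the DMSO points of their time, and for PHLPP2 all lie below them.

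INPP5D encodes SHIP1, the 5-phosphatase of blood cells. It had 292, 300.3 and 312 CPM in copanlisib cells at 4 h, against 257, 259.7 and 261 CPM in DMSO cells. At 8 h the values were 360.4, 366 and 363 CPM in copanlisib cells, against 286, 297 and 290.2 CPM in DMSO cells. At 12 h they were 409, 399 and 412 CPM in copanlisib cells, against 336, 351 and 335 CPM in DMSO cells. The groups did not overlap at any time, and the libraries of a group lay close together. Copanlisib lay wholly above DMSO for 19% of all genes at 4 h, 24.5% at 8 h and 21.9% at 12 h. Changes larger than that of INPP5D, in either direction, were found in 49.7%, 29.7% and 36.8% of all genes at these times. The rise was 0.22 ± 0.04 (log2, SE) at 4 h, 0.32 ± 0.04 at 8 h and 0.26 ± 0.04 at 12 h, with edgeR adjusted p of 6.0e-05, 2.6e-07 and 8.4e-06. The 4 h value was 0.27 with copanlisib replicate 3 only (edgeR adjusted p = 1.3e-05). INPP5D also rose with time, at 12 h against 4 h, by 0.43 ± 0.04 (log2) in copanlisib cells (edgeR adjusted p = 6.1e-10) and by 0.39 ± 0.04 in DMSO cells (edgeR adjusted p = 3.9e-09).

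INPP5K encodes SKIP, a 5-phosphatase known from insulin signalling in muscle. It had 30.9, 33.8 and 33.3 CPM in copanlisib cells at 4 h, against 26.6, 27.6 and 28.7 CPM in DMSO cells. At 8 h it had 35.8, 37.5 and 36.4 CPM in copanlisib cells, against 26.3, 24.5 and 25.4 CPM in DMSO cells. At 12 h it had 47.2, 44.4 and 44.1 CPM in copanlisib cells, against 34.2, 29.8 and 30.6 CPM in DMSO cells. All copanlisib libraries were above all DMSO libraries of their time, as for 19% of all genes at 4 h, 24.5% at 8 h and 21.9% at 12 h. Changes larger than that of INPP5K, in either direction, were found in 46.2%, 12.7% and 12.5% of all genes at these times. The log2 fold change was 0.24 ± 0.06 (SE) at 4 h, 0.52 ± 0.06 at 8 h and 0.52 ± 0.06 at 12 h, with edgeR adjusted p of 0.0045, 3.6e-07 and 3.2e-07. The 4 h call was lost when only the 4 h libraries were fitted (0.23, edgeR adjusted p = 0.055). The effect was larger at 8 h than at 4 h by 0.29 ± 0.09 (edgeR adjusted p = 0.029), a step called for 19.1% of all genes, and larger at 12 h than at 4 h by 0.28 ± 0.09 (edgeR adjusted p = 0.031). With copanlisib replicate 3 only, the 4 h change was 0.27 (edgeR adjusted p = 0.014) and both differences were 0.25, with edgeR adjusted p of 0.22 (8 h minus 4 h) and 0.15 (12 h minus 4 h).

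PHLPP2, an AKT phosphatase, had 19.5, 17.2 and 17.6 CPM in copanlisib cells at 4 h, against 20.1, 22.7 and 23.4 CPM in DMSO cells. At 8 h it had 11.6, 12.3 and 11.4 CPM in copanlisib cells, against 13.8, 13.5 and 13.5 CPM in DMSO cells. At 12 h it had 10.9, 11.3 and 10.4 CPM in copanlisib cells, against 12.7, 14.3 and 12.3 CPM in DMSO cells. Every copanlisib library lay below every DMSO library of its time, as for 19.9% of all genes at 4 h, 26.2% at 8 h and 24.1% at 12 h. The log2 fold change was −0.29 ± 0.08 (SE) at 4 h, −0.22 ± 0.08 at 8 h and −0.27 ± 0.09 at 12 h, with edgeR adjusted p of 0.0031, 0.047 and 0.022. With copanlisib replicate 3 only, the 4 h value was −0.33 (edgeR adjusted p = 0.014). The 8 h call was lost when any of the 6 libraries of 8 h, DMSO replicate 2 of 4 h, copanlisib replicate 2 or 3 of 12 h or DMSO replicate 1 of 12 h was left out, with log2 fold changes of −0.25 to −0.20. It was also lost without the filter on low counts (adjusted p = 0.19 in edgeR), with DESeq2 (adjusted p = 0.088), with counts taken without strand (adjusted p = 0.064 in edgeR) and with the replicate block (adjusted p = 0.055 in edgeR). The 12 h call was lost without copanlisib replicate 1 or 3 or DMSO replicate 2 of 12 h, with −0.27 to −0.20, and without the filter (edgeR adjusted p = 0.067). A larger fall came with time: at 12 h against 4 h PHLPP2 fell by 0.74 ± 0.08 (log2) in copanlisib cells (edgeR adjusted p = 3.8e-08) and by 0.76 ± 0.08 in DMSO cells (edgeR adjusted p = 1.3e-08).

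INPP4B, a 4-phosphatase that acts on the lipid the SHIP enzymes make, changed at 4 h. It had 63.0, 66.8 and 57.1 CPM in copanlisib cells, against 49.1, 46.0 and 45.7 CPM in DMSO cells, with no overlap. INPP4B rose by 0.41 ± 0.06 on the log2 scale (SE; edgeR adjusted p = 1.4e-05), and by 0.29 with copanlisib replicate 3 only (edgeR adjusted p = 0.0024). At 8 h the libraries overlapped, with 55.2, 49.8 and 49.7 CPM in copanlisib cells, against 48.8, 50.1 and 51.1 CPM in DMSO cells. At 12 h they overlapped again, with 61.4, 55.6 and 62.1 CPM in copanlisib cells, against 63.2, 56.6 and 59.5 CPM in DMSO cells. The later log2 fold changes were 0.04 ± 0.06 (8 h, edgeR adjusted p = 0.64) and −0.00035 ± 0.06 (12 h, edgeR adjusted p = 1.00). The effect at 12 h was below that at 4 h by 0.41 ± 0.09 on the log2 scale, as a difference of −0.41 (edgeR adjusted p = 0.0031), and that at 8 h gave a difference of −0.37 ± 0.09 (edgeR adjusted p = 0.0079). Using replicate 3 alone for copanlisib at 4 h, these differences were −0.29 (12 h minus 4 h, edgeR adjusted p = 0.044) and −0.25 (8 h minus 4 h, edgeR adjusted p = 0.14). In DMSO cells INPP4B rose by 0.35 ± 0.07 (log2) at 12 h against 4 h (edgeR adjusted p = 6.9e-05). The mean was 62.3 ± 4.88 CPM in copanlisib cells at 4 h and 59.8 ± 3.29 CPM in DMSO cells at 12 h (SD, n = 3 each). These groups differ in both treatment and time, and they were not compared by a test.

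INPP4A, the other 4-phosphatase, had 167, 163 and 167 CPM in copanlisib cells at 4 h, against 149, 157 and 154 CPM in DMSO cells. The libraries did not overlap, and the rise was 0.11 ± 0.04 on the log2 scale (edgeR adjusted p = 0.037). This call was lost with copanlisib replicate 3 only (0.13, edgeR adjusted p = 0.077), and without copanlisib replicate 1 or 2 of 4 h, DMSO replicate 1 or 3 of 4 h or copanlisib replicate 3 of 8 h (0.093 to 0.12). It was also lost without the filter (0.12, edgeR adjusted p = 0.13) and when only the 4 h libraries were fitted (0.10, edgeR adjusted p = 0.20). At 8 h its means were 166 ± 4.07 CPM in copanlisib cells and 160.5 ± 4.57 CPM in DMSO cells, and at 12 h 216 ± 7.83 CPM in copanlisib cells and 213 ± 3.47 CPM in DMSO cells (SD, n = 3 each). Neither difference passed the test (log2 fold change 0.05 ± 0.04 with edgeR adjusted p = 0.39, and 0.02 ± 0.04 with edgeR adjusted p = 0.74). Time moved INPP4A more, with a rise at 12 h against 4 h of 0.38 ± 0.04 (log2) in copanlisib cells and 0.47 ± 0.04 in DMSO cells (edgeR adjusted p of 2.5e-08 and 7.7e-10).

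INPPL1 encodes SHIP2, the widely expressed relative of SHIP1. At 4 h it had 139, 151 and 175 CPM in copanlisib cells, against 165, 180.2 and 179 CPM in DMSO cells. The groups overlapped, with copanlisib replicate 3 among the DMSO libraries. The fitted change was −0.17 ± 0.06 (log2, edgeR adjusted p = 0.018), and with copanlisib replicate 3 only it was 0.0056 (edgeR adjusted p = 0.96). The call was also lost without copanlisib replicate 1 (−0.11) or 2 (−0.16) or without DMSO replicate 2 (−0.14) or 3 (−0.16) of 4 h, and when only the 4 h libraries were fitted (−0.18, edgeR adjusted p = 0.16). At 8 h INPPL1 had 148, 154 and 153 CPM in copanlisib cells, against 137, 137 and 134 CPM in DMSO cells, with no overlap, and rose by 0.16 ± 0.06 on the log2 scale (edgeR adjusted p = 0.033). This call was lost without copanlisib replicate 2 or 3 or any DMSO replicate of 8 h or copanlisib replicate 2 of 4 h, with 0.15 to 0.17. At 12 h the means were 155 ± 3.42 CPM in copanlisib cells and 149 ± 2.10 CPM in DMSO cells (log2 fold change 0.06 ± 0.06, edgeR adjusted p = 0.50).

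INPP5E, a 5-phosphatase best known from the primary cilium, changed at 8 h. It had 26.0, 24.6 and 24.0 CPM in copanlisib cells at 8 h, against 21.4, 19.4 and 18.7 CPM in DMSO cells, with no overlap. INPP5E rose by 0.32 ± 0.08 on the log2 scale (edgeR adjusted p = 0.0043). At 4 h it had 20.6, 21.97 and 26.9 CPM in copanlisib cells, against 24.3, 24.4 and 26.2 CPM in DMSO cells, with copanlisib replicate 3 the highest library and replicates 1 and 2 the lowest. The 4 h change was −0.11 ± 0.08 (edgeR adjusted p = 0.31), and with copanlisib replicate 3 only it was 0.11 (edgeR adjusted p = 0.44). Without copanlisib replicate 3 it was −0.23 (edgeR adjusted p = 0.0083), so that the direction at 4 h turned on which copanlisib libraries entered. At 12 h INPP5E had 21.2 ± 1.44 CPM in copanlisib cells and 21.0 ± 0.962 CPM in DMSO cells (SD, n = 3 each), and the log2 difference was 0.02 ± 0.09 (edgeR adjusted p = 0.89).

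PHLPP1, the paralogue of PHLPP2, went the other way at 4 h. It had 43.1, 45.5 and 49.9 CPM in copanlisib cells, against 39.4, 40.6 and 37.8 CPM in DMSO cells, with no overlap. PHLPP1 rose by 0.23 ± 0.06 (log2; edgeR adjusted p = 0.0057), and by 0.35 with copanlisib replicate 3 only (edgeR adjusted p = 3.2e-04). Its 4 h call was lost when only the 4 h libraries were fitted (0.23, edgeR adjusted p = 0.066). At 8 h the libraries overlapped, with 37.6 ± 1.16 CPM in copanlisib cells and 36.9 ± 3.20 CPM in DMSO cells (SD, n = 3 each; log2 fold change 0.02 ± 0.07, edgeR adjusted p = 0.84). At 12 h PHLPP1 had 44.9, 45.8 and 47.6 CPM in copanlisib cells, against 40.9, 42.4 and 39.3 CPM in DMSO cells. These did not overlap, and the rise was 0.17 ± 0.06 on the log2 scale (edgeR adjusted p = 0.043). The 12 h call was lost without any copanlisib library of 8 h or 12 h, DMSO replicate 1 or 3 of 12 h, copanlisib replicate 2 of 4 h or DMSO replicate 1 of 4 h, with log2 fold changes of 0.15 to 0.19, and without the filter (edgeR adjusted p = 0.087).

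**Figure D4:**
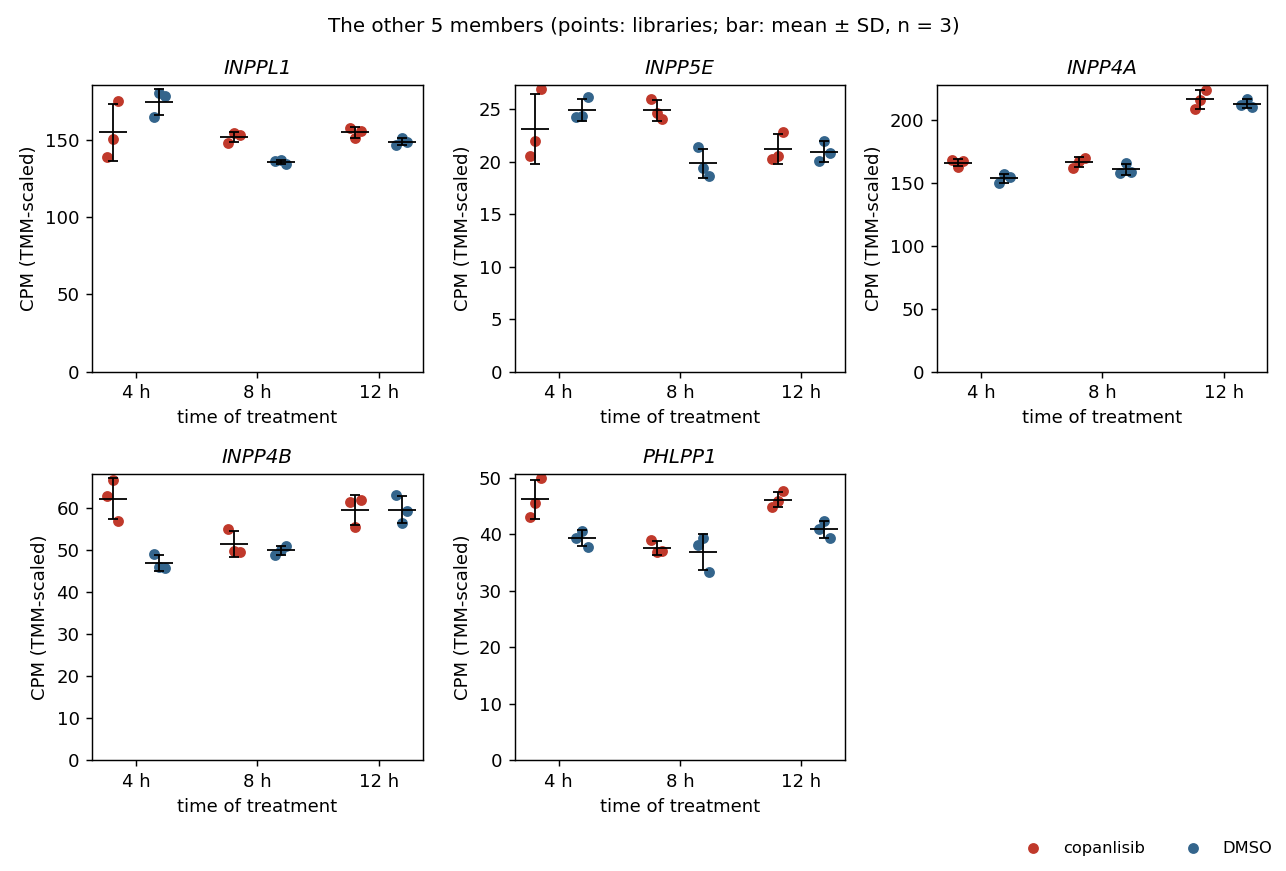
CPM (TMM-scaled) of INPPL1, INPP5E, INPP4A, INPP4B and PHLPP1 by time, copanlisib left of DMSO, with 1 point for each library and bars for the mean ± SD (n = 3 in each group). INPP4B separates at 4 h and INPP5E at 8 h, and the 3 copanlisib points of INPPL1 and INPP5E are spread at 4 h.

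**Figure D5:**
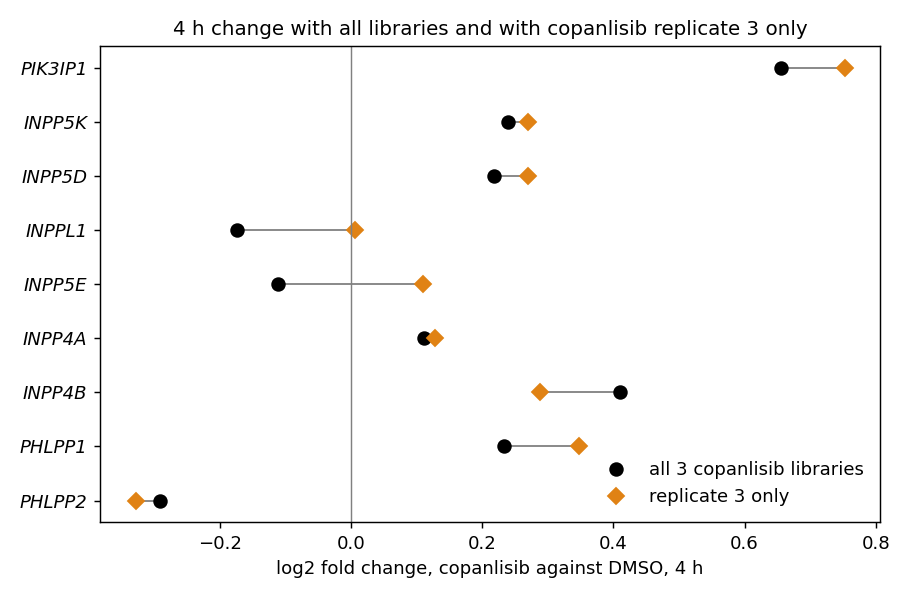
Log2 fold change at 4 h, copanlisib against DMSO, with all 3 copanlisib libraries (black circles) and with replicate 3 only (orange diamonds). INPPL1 and INPP5E lie below 0 with all libraries, at −0.17 and −0.11, and at 0.0056 and 0.11 with replicate 3 only, while the other 7 genes keep their direction.

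Across time without drug, 8 of 9 genes differed between 12 h and 4 h in DMSO cells (4 higher, 4 lower), against 48.6% of all genes (23.2% higher, 25.4% lower). INPP5D, INPP5K, INPP4A and INPP4B were higher at 12 h, and INPPL1, INPP5E, PHLPP2 and PIK3IP1 were lower. In copanlisib cells 4 of 9 differed between 12 h and 4 h (3 higher, 1 lower), against 51.9% of all genes (25.6% higher, 26.3% lower), namely INPP5D, INPP5K, INPP4A and PHLPP2, each in the direction it had in DMSO cells. Using copanlisib replicate 3 alone at 4 h, 6 of 9 were called in copanlisib cells, and 6353 of 17007 genes. INPPL1 fell by 0.23 ± 0.06 (log2) and INPP5E by 0.25 ± 0.09 in DMSO cells (edgeR adjusted p of 0.0016 and 0.016). INPP5K rose by 0.47 ± 0.06 (log2) in copanlisib cells and by 0.19 ± 0.07 in DMSO cells (edgeR adjusted p of 4.6e-07 and 0.019). The DMSO values of INPP5E lost their call without DMSO replicate 3 of 4 h or replicate 1 of 12 h (−0.21 and −0.22), and those of INPP5K without replicate 1 of 4 h or of 12 h (0.16 and 0.13). Comparisons over time and comparisons with DMSO share libraries and are given side by side only.

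The expressed genes whose log2 CPM ran most like that of PIK3IP1 over the 18 libraries were PIM2, RAB37 and WHRN, with Pearson r of 0.97, 0.96 and 0.95 among 9498 genes compared. For INPP5D they were TTC7A, ZNF362 and SYK, each at 0.98, and for INPP5K TDRD12 (0.97), SEPTIN6 (0.96) and EVL (0.96). For PHLPP2 they were UBP1, ANKRD27 and SPAG9, each at 0.97. PIM2 is a serine-threonine kinase and SYK the kinase next to the B cell receptor. The 18 points share the 6 groups, the time course and the library depth, so these values describe a common pattern over groups and are not independent observations.

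Genes around the 9 were followed in lists of known function, and most of their members were not called in 1 direction throughout. Beside the counts below, 17.7% of all genes were called higher and 20.7% lower at 4 h. At 8 h these shares were 14.8% and 18.3%, and at 12 h 13.8% and 16.5%. Of 19 tested genes for other phosphoinositide phosphatases, such as myotubularins, synaptojanins and OCRL, copanlisib cells had 6 higher and 2 lower at 4 h, 3 higher and 4 lower at 8 h, and 1 higher and 2 lower at 12 h. Their median log2 fold change was −0.01, −0.03 and −0.06 at the 3 times, beside 0.0095, 0.015 and 0.0044 over all genes, and with copanlisib replicate 3 only at 4 h 0 were higher and 2 lower. FIG4, a phosphatase of endosomal lipids, was called higher at each time and had 10.2 to 20.9 CPM over all libraries. Its log2 fold changes were 0.26 ± 0.08, 0.24 ± 0.08 and 0.21 ± 0.07 (SE), and 0.14 at 4 h with copanlisib replicate 3 only (edgeR adjusted p = 0.47). Most genes of this list, 11 of 19 at 4 h, 12 of 19 at 8 h and 16 of 19 at 12 h, were not called.

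Among the 9 tested genes in a list of adaptors and receptors around SHIP enzymes, 3 were higher and 4 lower at 4 h, 2 higher and 2 lower at 8 h, and 1 higher and 2 lower at 12 h. Their median log2 fold change was −0.08, −0.02 and −0.03, and with copanlisib replicate 3 only at 4 h 1 was higher and 2 lower. CD72, an inhibitory receptor of B cells, was higher at each time, with log2 fold changes of 0.26 ± 0.10, 0.38 ± 0.10 and 0.28 ± 0.10 (SE), and 0.20 at 4 h with copanlisib replicate 3 only (edgeR adjusted p = 0.36). DOK3, an inhibitory adaptor of B cells that binds SHIP1, was lower at each time, with means of 100.7, 87.5 and 73.9 CPM in copanlisib cells, against 141, 104 and 84.0 CPM in DMSO cells. Its log2 fold changes were −0.48, −0.24 and −0.18, and −0.26 at 4 h with copanlisib replicate 3 only. INPP5D and DOK3 thus moved in opposite directions in the same libraries. FCGR2B, another gene of this list, was called higher at 4 and 8 h, as INPP5D was. Its log2 fold changes were 0.53 and 0.23, and 0.44 at 4 h with copanlisib replicate 3 only. At 12 h FCGR2B did not pass the test (0.17).

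Of 14 tested subunits of PP2A, the other main phosphatase that acts on AKT, 4 were higher and 2 lower at 4 h, 1 higher and 5 lower at 8 h, and 2 higher and 1 lower at 12 h. Their median log2 fold change was −0.04, −0.12 and −0.04, and with copanlisib replicate 3 only at 4 h 3 were higher and 3 lower. PPP2CB, a catalytic subunit, was lower at each time (log2 fold change −0.16, −0.28 and −0.26), and PPP2R5D, a regulatory subunit, was higher at each time (0.16, 0.19 and 0.18). With copanlisib replicate 3 only, the 4 h values were −0.19 for PPP2CB (edgeR adjusted p = 0.0502) and 0.23 for PPP2R5D (edgeR adjusted p = 0.016).

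The targets of the drug and their partners form the list of 9 tested class I PI3K genes, of which 4 were higher and 2 lower at 4 h, 3 higher and 3 lower at 8 h, and 4 higher and 2 lower at 12 h. Their median log2 fold change was 0.15, 0.05 and 0.03, and with copanlisib replicate 3 only at 4 h 5 were higher and 2 lower. PIK3R1, the main regulatory subunit, was lower at each time, with means of 210.2, 176 and 176 CPM in copanlisib cells, against 256, 245 and 237 CPM in DMSO cells, and its 4 h log2 fold change was −0.28 (−0.42 with copanlisib replicate 3 only). PIK3CG, the gamma catalytic subunit, was higher, with log2 fold changes of 1.23, 0.63 and 0.29, and so was PIK3R5, a regulatory subunit of the gamma isoform (0.56, 0.45 and 0.46). Their 4 h values with copanlisib replicate 3 only were 1.16 for PIK3CG and 0.66 for PIK3R5. Of 11 genes for AKT and proteins that read PIP3 or its products, 5 were higher and 2 lower at 4 h, 2 higher and 1 lower at 8 h, and 3 higher and 1 lower at 12 h. Their median log2 fold change was 0.15, 0.0096 and 0.012, and with copanlisib replicate 3 only at 4 h 2 were higher and 0 lower. PLEKHA2, which binds the lipid product of the SHIP enzymes, was higher at each time (0.41, 0.25 and 0.36), as was the adaptor GAB1 (0.93, 0.39 and 0.46), and their 4 h values with copanlisib replicate 3 only were 0.32 for PLEKHA2 and 0.70 for GAB1. Genes for brakes and for activators of the pathway were found among both the higher and the lower genes. Calls in both directions were common among all genes, so the list counts are a description of their members only.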

How the data were processed

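RNA of 18 HAIR-M libraries was measured by RNA-seq. Per the submitters' processing notes, the authors used CASAVA 1.7, STAR 2.5.2b and the build hg38, and the deposited values are raw counts of uniquely mapped reads per gene, not normalized; reads with several positions are not in them. The labels name a TruSeq RNA kit without stating strand. The strand column used held 94.3% to 95.3% of strand-assigned reads. Depth was 13587017 to 25566761 gene reads, where 118 reads is the least for any of the 9 genes in a library. Names came from a gene name table and GENCODE 29. All 18 libraries were fitted together, with 1 mean for each of 6 groups, in edgeR 4.0.16 (R 4.3.3; filterByExpr, TMM, two-sided quasi-likelihood test, Benjamini-Hochberg over 16122 genes). CPM are TMM-scaled. Scripts were tested on simulated data. Alternatives used DESeq2 1.42.0 and limma 3.58.1 voom, other scaling, no filter, counts without strand, a replicate block, fewer libraries and stricter thresholds. All 9 genes are named. From each list, up to 3 genes called at every time in 1 direction with the largest average change are named, and FCGR2B in addition. The 9 genes and the lists were chosen with earlier results of these data known. Some marker genes are not reported here.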

Additional observations from a re-analysis of the deposited data

Results flagged for a closer look

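In 7 cases the copanlisib effect of a gene differed between times by the test of the difference itself (edgeR quasi-likelihood, adjusted over 16122 genes). All use the 4 h libraries, of which copanlisib replicates 1 and 2 stood apart, and the part of that in these values was not tested.

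For PIK3IP1 the effect at 12 h minus that at 4 h was 0.72 ± 0.15 on the log2 scale (edgeR adjusted p = 0.0025). For INPP5K the difference was 0.28 ± 0.09 at 12 h minus 4 h (edgeR adjusted p = 0.031) and 0.29 ± 0.09 at 8 h minus 4 h (edgeR adjusted p = 0.029). The first INPP5K difference lost its call without copanlisib replicate 1 or 2 or DMSO replicate 2 or 3 of 4 h, or without copanlisib replicate 1 or DMSO replicate 2 or 3 of 12 h (0.24 to 0.30). The second lost it without copanlisib replicate 1 or DMSO replicate 2 or 3 of 4 h, or without copanlisib replicate 2 or 3 or DMSO replicate 2 or 3 of 8 h (0.24 to 0.29).

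For INPP4B, whose effect was seen at 4 h, the difference was −0.41 ± 0.09 at 12 h minus 4 h (edgeR adjusted p = 0.0031) and −0.37 ± 0.09 at 8 h minus 4 h (edgeR adjusted p = 0.0079). For INPPL1 the effect at 8 h minus that at 4 h was 0.33 ± 0.08 (edgeR adjusted p = 0.0068), and for INPP5E it was 0.43 ± 0.12 (edgeR adjusted p = 0.014). Without copanlisib replicate 2 of 4 h the INPP5E value was 0.39 (edgeR adjusted p = 0.051). With copanlisib replicate 3 as the only copanlisib library at 4 h, 2 of these 7 remained called, PIK3IP1 at 0.62 and INPP4B at 12 h minus 4 h at −0.29. The other 5 were then 0.25 for both INPP5K differences, 0.15 for INPPL1, 0.20 for INPP5E and −0.25 for INPP4B at 8 h minus 4 h.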

How the results depend on the processing

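Of 49 results for single genes, 27 kept their direction and side of the threshold under all alternatives other than the stricter thresholds (26 each, 25 for the PIK3IP1 difference of 12 h minus 8 h, for which DESeq2 gave no adjusted p), among them every PIK3IP1 and INPP5D change with copanlisib, INPP5K at 8 and 12 h, and INPP4B and PHLPP2 at 4 h. A log2 fold change of at least 0.5 would end the calls of INPP5D at each time and of INPP4B and PHLPP2 at 4 h. The causes of the changes below were not tested. Precision is limited by 3 libraries in a group and, for PIK3IP1, PHLPP2 and INPP5E, by low read counts, down to 118, 180 and 254 in a library.

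With copanlisib replicate 3 only at 4 h, INPPL1 changed sign to 0.0056 and INPP5E to 0.11. The 12 h change of INPP4B, near 0, changed sign to 0.00022 with limma-voom and 0.0023 with only the 12 h libraries. Leaving out 1 library at a time, values that crossed 0 ranged from −0.0058 to 0.072 for INPP4B and −0.043 to 0.066 for PHLPP1 at 8 h, and from −0.040 to 0.057 for INPP5E, −0.0062 to 0.046 for INPP4A and −0.034 to 0.046 for INPP4B at 12 h.

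Counts of genes called moved by over 1.5 times as follows, from 6195, 5336 and 4882 at 4, 8 and 12 h. Fitting only the libraries of the times compared gave 3733 genes and 4 of the 9 at 4 h, 1719 and 1746 genes for the differences of 12 h and of 8 h minus 4 h (2688 and 3086 in the reported fit), and 273 for 12 h minus 8 h (9 in the reported fit). Copanlisib replicate 3 only gave 3778 genes at 4 h, and 900, 409 and 176 for these differences, with 1 of the 9 for 8 h minus 4 h. An adjusted p under 0.01 gave 1134, 1062 and 0 genes for the differences, 3 of the 9 at 12 h, and 2 of the 9 for 8 h minus 4 h. A log2 fold change of at least 0.5 gave 1809, 1396 and 1239 genes and 1, 2 and 2 of the 9 at 4, 8 and 12 h, and 819, 699 and 2 genes for the differences, with 1 and 0 of the 9 for those against 4 h. It gave 3016 genes and 2 of the 9 for time in DMSO cells, and 3205 genes and 1 of the 9 for time in copanlisib cells. Without the filter, 3 of the 9 were called at 12 h and 35 genes for 12 h minus 8 h, where DESeq2 called 26 and counts without strand 5.

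Leaving out 1 library at a time, 3 to 5 of the 9 were called at 12 h, with 3 without copanlisib replicate 1 or 3 of 12 h. For 12 h minus 4 h it gave 1596 to 5781 genes and 2 to 5 of the 9, for 8 h minus 4 h 1650 to 6353 genes and 3 to 6 of the 9, and for 12 h minus 8 h 0 to 172 genes and 0 of the 9. The highest counts of all 3 came without copanlisib replicate 3 of 4 h.

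Replicate numbers are shared by copanlisib and DMSO libraries. Deviations of same-numbered libraries correlated between −0.20 and 0.40, and 3 of 9 correlated best with their own number. At 4 and 8 h each same-number correlation lay above the mean with other numbers, and at 12 h each lay below it. With 3 libraries in a group, this comparison cannot show whether same-numbered libraries were paired. With the replicate block, 6206, 5301 and 4887 genes were called at 4, 8 and 12 h, and the only drug effect of a single gene to lose its call was PHLPP2 at 8 h (−0.22, edgeR adjusted p = 0.055).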
